A study of Homo sapiens with 12 samples.

Results

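RD is a long-established human line of embryonal rhabdomyosarcoma (ERMS), a soft tissue tumour whose cells take on an incomplete skeletal muscle identity, and the labels give its genotype as FN-RMS. The transcriptome of RD cells that had received a scrambled siRNA, a short double-stranded RNA matched to no intended transcript, is described here across all genes, with no contrast to a knockdown. The 3 libraries were the scrambled controls of an EHMT1 knockdown experiment, 3 of the 12 libraries of the series, which also holds EHMT1 siRNA, SOX8 siRNA and a second set of scrambled siRNA libraries. Cells grew in RPMI with fetal bovine serum, were transfected with Lipofectamine RNAiMAX, and were lysed in TRIzol 48 h later. Transfection reagent and siRNA were common to all 3 libraries and no untransfected library was used, so the levels are those of transfected cells of a single line. Whether each replicate was its own culture is not given in the labels, so the SD between libraries may be technical.

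Skeletal muscle identity is set by 4 related basic helix-loop-helix factors, MYOD1, MYF5, MYOG and MYF6, which pair with E proteins such as TCF3 and bind E-boxes in the promoters of muscle genes. In normal myogenesis PAX3 and PAX7 mark the precursors, MYF5 and MYOD1 commit them, and MYOG and MEF2 factors drive fusion and assembly of the sarcomere, the contractile unit of thick and thin filaments anchored at Z-discs. Rhabdomyosarcoma cells express muscle regulators yet keep dividing and rarely complete this programme.

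Each file listed 61552 genes, and the libraries held 47258481, 41095515 and 41895647 gene counts in replicates 1, 2 and 3. Levels are given as TPM, a transcript abundance in which the count per base of exon is scaled to the same total in each library, and sometimes as CPM, in which the count is scaled with no regard to length. Length is the union of a gene's annotated exons, and a ratio between genes is given also with the length of the longest transcript where that moves it by over 1.5 times. The floor, what 3 counts are worth, was 0.0635 to 0.0730 CPM, and it is the highest level that 0 counts allow for counting error alone. A gene is called expressed here at 1 TPM or more in all 3 libraries. By this rule 11919 of 19877 protein-coding genes were expressed (60.0%), 8586 reached 10 TPM (43.2%) and 1511 reached 100 TPM (7.60%). These shares are the background for every list below. Among 8844 protein-coding genes with a mean of at least 10 TPM the coefficient of variation (CV) over the libraries had a median of 6.78%, and it passed 20% in 142. Mitochondrially encoded genes took 16.8%, 20.04% and 16.3% of all TPM in replicates 1, 2 and 3. Their share was highest in replicate 2, and the part this plays in the other levels of that library was not tested.

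The 3 markers used here for these cells, MYOD1, DES and SOX8, were among the more abundant transcripts. MYOD1, the master regulator of the muscle lineage, stood at 296, 312 and 339 TPM in replicates 1, 2 and 3, or 315.6 ± 21.3 TPM (SD, n = 3). Its mean ranked 376 among protein-coding genes. DES, which encodes the muscle intermediate filament desmin, stood at 415, 506 and 500 TPM, or 473.7 ± 50.9 TPM. SOX8, a transcription factor known from neural crest, testis and satellite cells, stood at 171, 186 and 204 TPM, or 187.0 ± 16.7 TPM. Replicate 1 was the lowest of the 3 libraries for each marker, and no marker fell near 1 TPM in any library. The levels of MYOD1 and DES did not go against the label of a rhabdomyosarcoma.

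The 4 muscle bHLH factors were unequal. MYOG, which drives terminal differentiation, was at 104, 124 and 137 TPM, so every library held more MYOD1 than MYOG, by 2.61 ± 0.21-fold (SD of the ratio, n = 3). MYF5, the early commitment factor, had 0 counts in all 3 libraries, which allows up to 0.177 TPM. MYF6, a factor of mature fibres, had 5, 1 and 4 counts, or 0.196 ± 0.117 TPM. RD cells thus held 2 of the 4 factors at over 100 TPM and the other 2 under 1 TPM. In a bulk library, few cells with much of a transcript and many cells with little cannot be told apart, so the values for MYOG and the later muscle genes are averages over the culture.

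Of 28 myogenic regulators 21 were expressed (75%), and 6 had means over 100 TPM. Below MYOD1 came SIX2 (228.2 ± 3.60 TPM) and VGLL2 (215.1 ± 16.4 TPM), whose ranges overlapped. SIX2 is a homeodomain factor, and VGLL2 is a muscle cofactor of TEAD factors. PITX3, a homeodomain factor expressed in muscle, stood at 175.1 ± 25.4 TPM. The precursor factors were lower. PAX7, the satellite cell marker, stood at 33.0, 34.9 and 34.8 TPM. PAX3, which acts in the embryonic dermomyotome, stood at 9.34, 9.64 and 10.5 TPM, so PAX7 exceeded PAX3 by 3.49 ± 0.16-fold, or by 1.59 ± 0.073-fold with the length of the longest transcript. MEF2D (62.6 ± 4.83 TPM) exceeded MEF2A (23.1 ± 0.90 TPM), and MEF2C, the MEF2 factor of differentiating muscle, was at 9.68 ± 0.52 TPM. The 7 members with a mean under 1 TPM were MEOX2, EYA2, MEF2B, MYF6, BARX2, DACH1 and MYF5.

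MYOD1 acts together with E proteins and is held back by ID proteins and by repressors that occupy E-boxes. Of 21 such partners and inhibitors 16 were expressed (76.2%). The E protein TCF3 stood at 201.5 ± 14.9 TPM, TCF12 at 65.5 ± 2.09 TPM and TCF4 at 17.8 ± 1.43 TPM. The highest member was a repressor: HEY1, a Notch target, at 381, 370 and 383 TPM, above MYOD1 in every library. ID3, which sequesters E proteins, was at 280, 228 and 244 TPM, and ID1 at 169, 123 and 123 TPM, with replicate 1 highest for both. MSC, the E-box repressor musculin, was at 158.7 ± 14.4 TPM. TWIST1, a mesodermal inhibitor of MYOD1, was at 0.877, 1.02 and 1.12 TPM and did not reach the threshold in replicate 1.

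**Figure D1:**
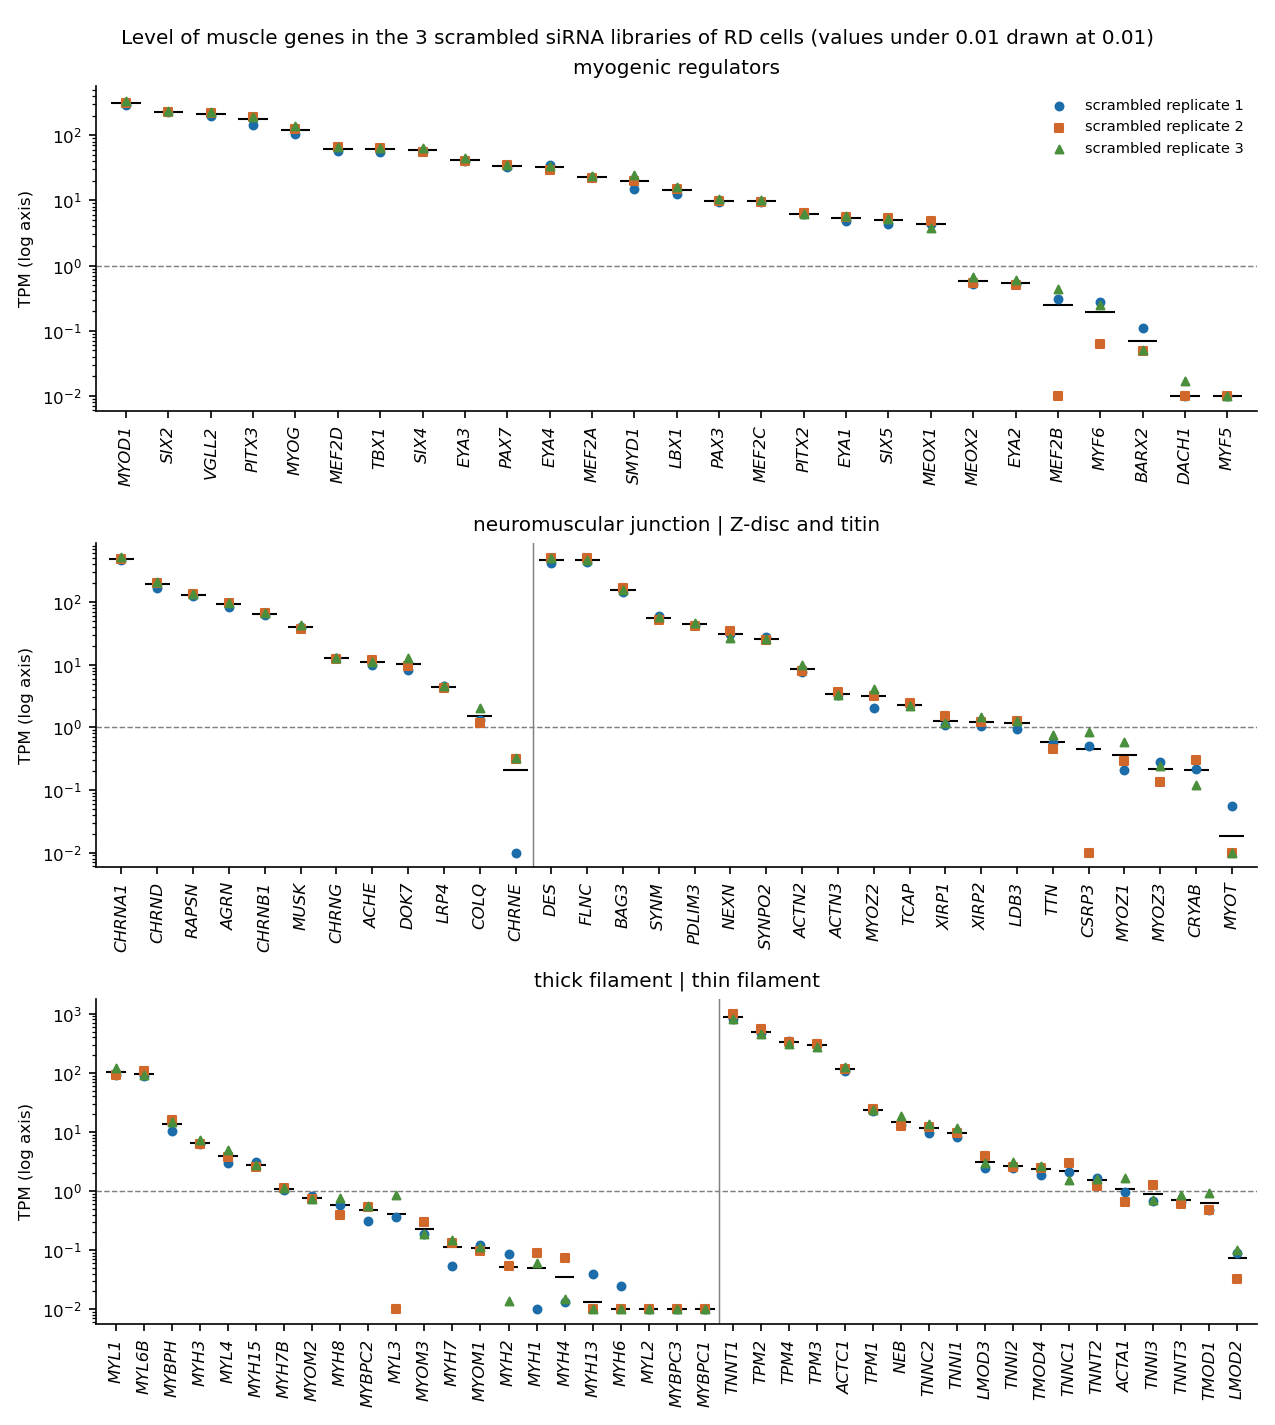
Level in TPM (log axis) of the members shown of 5 muscle lists in the 3 scrambled siRNA libraries, with points for libraries and a bar for the mean, and the dashed line marks 1 TPM. MYOD1 at 315.6 TPM and CHRNA1 at 493.3 TPM stand at the top of their lists, while most thick filament genes lie under the line.

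Of 19 satellite cell and fusion genes 17 were expressed (89.5%). VCAM1 (0.327 TPM) and CALCR (0.00718 TPM), which encode surface proteins, were not. MSTN, which encodes myostatin, the secreted brake on muscle growth, stood at 712, 658 and 809 TPM, the highest level in the list. CDH15, the M-cadherin of myoblasts, was at 85.6 ± 7.39 TPM and NCAM1 at 75.6 ± 1.71 TPM. The 2 fusion proteins of the muscle membrane were lower, with MYMX at 19.5 ± 4.20 TPM and MYMK at 3.94, 2.33 and 5.51 TPM. Replicate 2 was lowest for MYMK and replicate 1 for MYMX, so these genes did not share an order over the libraries.

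The neuromuscular junction list had the largest expressed share of the 9 muscle lists, 11 of 12 genes (91.7%). CHRNA1, the alpha subunit of the muscle acetylcholine receptor, stood at 477, 485 and 518 TPM. CHRND, the delta subunit, stood at 170, 199 and 210 TPM, below CHRNA1 in every library by 2.57 ± 0.21-fold (6.07 ± 0.49-fold with the longest transcript). RAPSN, the scaffold that clusters the receptor, was at 131.2 ± 6.93 TPM and the kinase MUSK at 40.2 ± 2.93 TPM. The receptor carries a gamma subunit in fetal muscle and an epsilon subunit in adult muscle. CHRNG, the gamma subunit, stood at 12.8, 12.3 and 13.0 TPM. CHRNE, the epsilon subunit, had 0, 10 and 10 counts, or at most 0.318 TPM, and only 5.67% of its reads lay on its own strand. Counted on the gene strand alone CHRNG reached 30.5 ± 2.39 TPM against 0.574 TPM for CHRNE. The fetal subunit was thus above the adult one in every library, by 56.0 ± 15.2-fold on the gene strand.

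Promoters of 4 of these genes are printed because they differ in level from 493.3 TPM to under 1 TPM. Each is the 250 bases before the RefSeq transcription start in GRCh38.p14, 5′ to 3′ on the gene's strand. Capitals mark E-boxes (CANNTG, which reads the same on both strands in its fixed letters) and matches to the MEF2 consensus on either strand.
CHRNA1, chr2:174764473-174764722, minus strand: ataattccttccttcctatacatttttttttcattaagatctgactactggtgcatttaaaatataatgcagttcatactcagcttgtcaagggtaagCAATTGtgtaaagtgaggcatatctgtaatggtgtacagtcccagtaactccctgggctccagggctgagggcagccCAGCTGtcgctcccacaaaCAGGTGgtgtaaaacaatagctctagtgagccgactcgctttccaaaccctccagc
CHRND, chr2:232525910-232526159, plus strand: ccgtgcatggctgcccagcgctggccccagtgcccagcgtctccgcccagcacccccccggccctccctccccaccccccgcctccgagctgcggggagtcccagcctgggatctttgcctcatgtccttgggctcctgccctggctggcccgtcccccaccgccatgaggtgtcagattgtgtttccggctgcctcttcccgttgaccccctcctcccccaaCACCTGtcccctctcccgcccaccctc
MYOG, chr1:203086013-203086262, minus strand: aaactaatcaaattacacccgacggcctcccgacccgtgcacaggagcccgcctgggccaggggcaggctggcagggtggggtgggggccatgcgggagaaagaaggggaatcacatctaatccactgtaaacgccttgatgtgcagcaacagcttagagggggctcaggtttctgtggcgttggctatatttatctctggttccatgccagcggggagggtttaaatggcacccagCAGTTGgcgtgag
MYF6, chr12:80707384-80707633, plus strand: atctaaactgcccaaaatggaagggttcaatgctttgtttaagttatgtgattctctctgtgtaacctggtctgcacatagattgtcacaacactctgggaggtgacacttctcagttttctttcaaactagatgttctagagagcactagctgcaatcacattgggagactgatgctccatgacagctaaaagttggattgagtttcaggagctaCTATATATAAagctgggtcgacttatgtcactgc
The CHRNA1 window held 3 E-boxes, CHRND and MYOG held 1 each, and MYF6 held 0 E-boxes and 1 MEF2 match, which also spells a TATA box. Other junction genes did not keep this order. The windows of CHRNB1 and CHRNE held 4 E-boxes each, at 65.6 and 0.211 TPM, and that of ACHE held 0 at 11.0 TPM. The number of E-boxes thus did not follow the level across junction genes. E-boxes are frequent by base composition: 62.2% of all 27305 promoters of this length held at least 1. The window was searched for exact matches, so sites that depart from the consensus are not marked. A match is a description of the letters and was not tested for binding.

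Sarcomere genes divided by filament. Of 22 thick filament genes 7 were expressed (31.8%), well under the 60.0% of all protein-coding genes, while 14 of 19 thin filament genes were (73.7%). With 1 CPM in place of 1 TPM the counts were 8 for the thick and 11 for the thin filament. The higher share of the thin filament thus depends in part on the measure. The 13 of 20 Z-disc genes (65%) and 13 of 24 genes of calcium handling and energy supply (54.2%) lay near the background. MYLPF, another light chain gene, was not analysed here.

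Within the thick filament, MYL1, a fast alkali light chain, stood at 91.1, 92.4 and 121 TPM and MYL6B at 88.3, 106 and 91.6 TPM. MYH3, the embryonic myosin heavy chain, stood at 6.35, 6.25 and 7.18 TPM. MYH8, the perinatal heavy chain, was at 0.583 ± 0.190 TPM. The adult heavy chains were lower again, with means of 0.112 TPM for the slow MYH7, 0.0513 TPM for MYH2 and 0.0501 TPM for MYH1, on 0 to 10 counts per library. MYL2, MYBPC1 and MYBPC3 had 0 counts. MYH3 exceeded MYH8 by 12.1 ± 3.56-fold. The other heavy chain genes expressed by unstranded counts were MYH15 at 2.80 ± 0.25 TPM and MYH7B at 1.10 ± 0.049 TPM, and MYH7B was at 0.342 ± 0.125 TPM on its own strand.

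Thin filament genes had a median of 3.11 TPM against 0.317 TPM for the thick filament and 5.93 TPM for all protein-coding genes, and 5 of the 19 had means over 100 TPM. The tropomyosin genes TPM4 (331.9 TPM) and TPM3 (296.6 TPM) were among these 5. Gene counts do not tell the transcript forms of a gene apart, and whether these transcripts serve the sarcomere was not tested. TNNT1, the slow skeletal troponin T, stood at 816, 985 and 817 TPM, which placed its mean at rank 94 of protein-coding genes. TPM2, a muscle tropomyosin, stood at 469, 550 and 455 TPM. Replicate 2 was highest for both. The cardiac alpha actin ACTC1, which is also the actin of fetal skeletal muscle, stood at 108, 116 and 127 TPM. ACTA1, the adult skeletal alpha actin, was at 0.976, 0.664 and 1.64 TPM on 11 to 27 counts, so ACTC1 exceeded it by 121 ± 49.1-fold, or by 233 ± 154-fold on the gene strand. TNNT3, the fast troponin T, was at 0.704 ± 0.138 TPM, below TNNT1 by 1281 ± 347-fold. NEB, the giant ruler protein of the thin filament, was at 14.8 ± 3.33 TPM with replicate 3 highest.

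At the Z-disc the desmin gene DES (473.7 TPM) and FLNC, the muscle filamin, at 437, 499 and 470 TPM were the highest and their ranges overlapped. BAG3, a chaperone partner that maintains filamin, was at 155.9 ± 10.5 TPM. The sarcomeric alpha-actinin ACTN2 was at 8.44 ± 1.20 TPM. TTN, the titin gene, had 819, 603 and 979 counts, but these spread over the longest coding gene and amounted to 0.588 ± 0.148 TPM. Only 44.8% of its reads lay on its own strand.

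For excitation and energy supply, STAC3, an adaptor of the calcium channel complex, stood at 202.7 ± 13.8 TPM and the release channel RYR1 at 58.1, 68.8 and 73.0 TPM. CACNA1S, the voltage sensor that RYR1 couples to, was at 0.215 ± 0.143 TPM. ATP2A2, the slow and cardiac calcium pump, exceeded the fast pump ATP2A1 by 4.44 ± 0.54-fold (8.26 ± 1.01-fold with the longest transcript). CKB, the brain-type creatine kinase, was at 182.6 ± 22.7 TPM, whereas the muscle form CKM was at 3.67, 7.46 and 5.50 TPM. Myoglobin (MB) was at 0.233 ± 0.135 TPM and the calcium store protein CASQ1 at 0.381 ± 0.160 TPM. RYR1 and STAC3 were thus expressed while the mean of CACNA1S lay under 1 TPM.

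Of 19 genes of the dystrophin complex, which ties the cytoskeleton to the matrix, 16 were expressed (84.2%). DAG1, the matrix receptor dystroglycan, was at 223.0 ± 19.02 TPM and the sarcoglycan SGCA at 93.6 ± 8.20 TPM. UTRN, the fetal homologue utrophin, stood at 53.7, 48.7 and 60.3 TPM, above DMD at 13.3, 12.3 and 13.4 TPM in every library (4.17 ± 0.30-fold). CAV3 was at 0.841 ± 0.204 TPM and SSPN at 0.0163 ± 0.018 TPM.

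**Figure D2:**
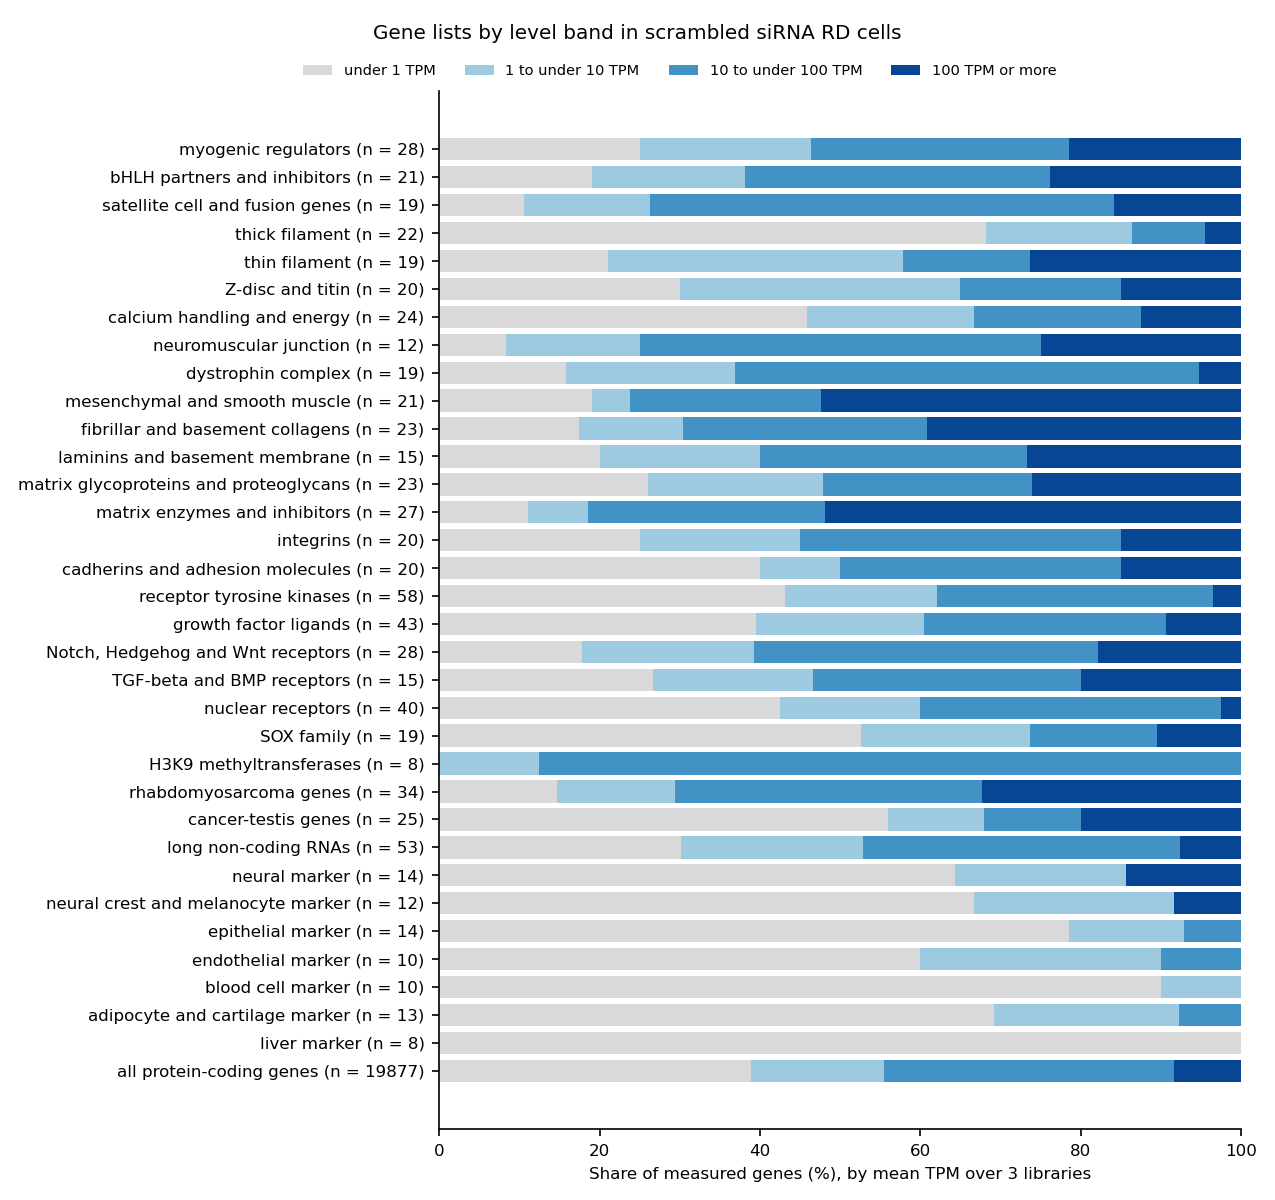
Share of the genes of each list (horizontal axis, percent of measured genes) by mean level over 3 libraries, in 4 bands of TPM, with all 19877 protein-coding genes in the bottom bar. All 8 liver markers lie in the grey band under 1 TPM, and matrix enzymes (14 of 27 genes) and mesenchymal and smooth muscle genes (11 of 21) have the widest bands at 100 TPM or more.

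Of 21 mesenchymal and smooth muscle genes 17 were expressed (81%), and 11 had means over 100 TPM. LGALS1, which encodes galectin-1, was at 1237 ± 121 TPM. The intermediate filament gene VIM was at 561, 515 and 534 TPM. Desmin and vimentin genes thus stood at like levels by unstranded counts (DES over VIM 0.887 ± 0.129), but VIM reached 1712 ± 14.8 TPM when counted on its own strand, and DES over VIM was then 0.296 ± 0.031. With the longest transcript as length the unstranded ratio was 0.502 ± 0.073. The smooth muscle markers ACTA2 (0.469 ± 0.014 TPM), MYH11 (0.382 ± 0.133 TPM) and CNN1 (0.596 ± 0.055 TPM) all lay under 1 TPM, and their master cofactor MYOCD had 0 counts. Other genes of the smooth muscle cytoskeleton were expressed, with the actin-binding CALD1 at 247.6 ± 10.4 TPM, SMTN at 12.4 ± 1.57 TPM and TAGLN at 6.01 ± 1.28 TPM. Smooth muscle genes thus ranged from 0 counts to over 100 TPM.

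COL3A1, the collagen of reticular fibres, was the most abundant gene of any list at 4487, 4031 and 4299 TPM, and ranked 16 among protein-coding genes. Before scaling for length it was at 7686 ± 286 CPM. Of 23 collagen genes 18 were expressed (78.3%), and 9 had means over 100 TPM. COL5A2 was next at 987, 958 and 929 TPM. COL1A1 stood at 111, 124 and 115 TPM, so COL3A1 exceeded it by 36.8 ± 4.04-fold. Type I collagen is a trimer of alpha 1 and alpha 2 chains, but COL1A2 stood at only 6.62, 5.90 and 8.29 TPM, below COL1A1 by 17.2 ± 3.65-fold. COL5A2 likewise exceeded COL5A1 by 9.60 ± 0.62-fold, and COL6A1 exceeded COL6A3 by 18.4 ± 2.78-fold. Chains that assemble together were unequal at the transcript level in these 3 cases. COL4A1 and COL4A2, the main basement membrane pair, were closer at 1.46 ± 0.0063-fold, while COL4A3, COL4A4, COL4A5 and COL4A6 were all under 1 TPM.

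The laminin beta chain LAMB1 stood at 559, 555 and 554 TPM and the gamma chain LAMC1 at 544, 546 and 559 TPM, and their ranges overlapped (ratio 1.01 ± 0.018). With the longest transcript as length the ratio was 1.34 ± 0.024, so the match depends on the length used; COL4A1 over COL4A2 was then 1.10 ± 0.0047. The alpha chains, which complete the trimer, were lower. LAMA4 was at 113.3 ± 3.09 TPM, above LAMA2, the chain of muscle basement membrane, at 47.9 ± 1.33 TPM (2.36 ± 0.058-fold, or 3.91 ± 0.095-fold with the longest transcript). LAMA5 was at 46.5 ± 8.11 TPM, and LAMA1 and LAMA3 were under 1 TPM. In all 12 of 15 laminin and basement membrane genes were expressed (80%).

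Among secreted glycoproteins and proteoglycans 17 of 23 were expressed (73.9%). SPARC, a collagen-binding protein, was at 909.6 ± 26.2 TPM. BGN, the small proteoglycan biglycan, was at 523, 689 and 673 TPM, with replicate 1 lowest. TNC (473.4 ± 25.9 TPM) and FN1, which encodes fibronectin (448.2 ± 12.4 TPM), followed, and their ranges overlapped. DCN, the related proteoglycan decorin, had 2, 4 and 13 counts (0.0443 ± 0.0422 TPM), and ELN, which encodes elastin, was at 0.0713 ± 0.035 TPM. BGN and DCN thus stood far apart.

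Of 27 matrix enzymes and inhibitors 24 were expressed (88.9%), 14 with means over 100 TPM. PLAU, the urokinase protease that activates plasminogen at the cell surface, led at 708, 675 and 652 TPM. Its receptor PLAUR was at 85.7 ± 3.08 TPM. The membrane collagenase MMP14 was at 233.1 ± 8.12 TPM with its inhibitor TIMP2 at 158.6 ± 5.45 TPM and its substrate MMP2 at 29.3 ± 2.34 TPM. MMP9 (0.0905 TPM) and MMP1 (0.656 TPM) were under 1 TPM and MMP3 had 0 counts, although MMP1 read 1.07 ± 0.33 TPM on its strand. Among genes that act on collagen, the chaperone SERPINH1 was at 376.3 ± 17.6 TPM and the lysyl oxidase LOXL2 at 135.4 ± 3.47 TPM. The related LOXL1 (58.7 ± 6.94 TPM) and LOX (55.0 ± 6.94 TPM) were lower, and the prolyl hydroxylase P4HA2 was at 16.5 ± 0.32 TPM.

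**Figure D3:**
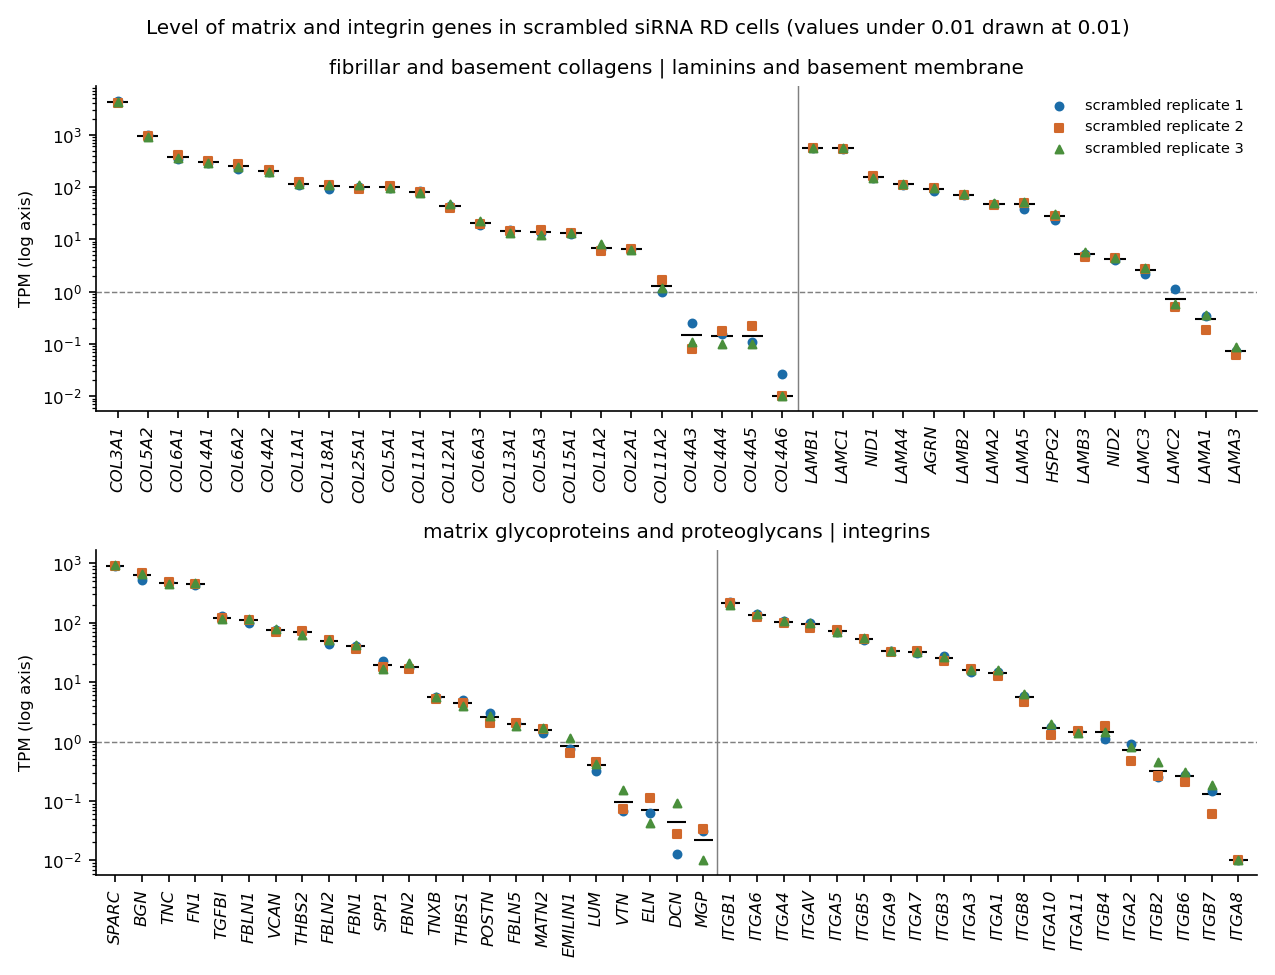
Level in TPM (log axis) of collagen, laminin, matrix glycoprotein and integrin genes in the 3 libraries, with points for libraries, a bar for the mean and a dashed line at 1 TPM. COL3A1 stands at 4272 TPM against 116.6 TPM for COL1A1 and 6.94 TPM for COL1A2, and LAMB1 and LAMC1 overlap at 556 and 550 TPM.

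Integrins carry matrix signals into the cell as pairs of alpha and beta chains, and 15 of 20 chains were expressed (75%). The common beta chain ITGB1 stood at 221, 216 and 201 TPM. Of its alpha partners the laminin receptor chain ITGA6 was at 134.8 ± 9.09 TPM, ITGA4 at 103.6 ± 4.05 TPM and the fibronectin receptor chain ITGA5 at 71.8 ± 2.59 TPM. Counted on its own strand ITGA4 was at 157.6 ± 7.47 TPM. ITGA7, the laminin receptor chain of mature muscle, was at 31.8 ± 1.22 TPM. Among cell adhesion genes 12 of 20 were expressed (60%), equal to the background. CDH2, the N-cadherin of mesenchyme and myoblasts, was at 236.1 ± 11.0 TPM. CDH1, the E-cadherin of epithelia, had 2, 0 and 0 counts.

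Receptor tyrosine kinases were expressed at a share near that of all genes, 33 of 58 (56.9%), and 2 had means over 100 TPM. FGFR4, a receptor of muscle precursors that is often high in rhabdomyosarcoma, stood at 100, 114 and 128 TPM. EPHA2, an ephrin receptor, stood at 105, 108 and 113 TPM, within the range of FGFR4. EPHB4 (84.2 ± 4.25 TPM), the collagen receptor DDR2 (77.0 ± 5.18 TPM) and AXL (73.4 ± 5.40 TPM) came next. FGFR1 was at 45.6 ± 3.58 TPM, below FGFR4 in every library. EGFR (30.0 ± 1.65 TPM), IGF1R (27.3 ± 2.04 TPM) and MET (26.8 ± 2.33 TPM) stood close together. PDGFRB was at 4.80 ± 0.094 TPM and PDGFRA at 0.0357 ± 0.024 TPM, and ALK was at 0.379 ± 0.0821 TPM.

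Ligand genes were at a like share, 25 of 43 (58.1%), but with a wider range. IGF2, the fetal growth factor that signals through IGF1R, stood at 1565, 1897 and 1935 TPM and ranked 38 among protein-coding genes, with replicate 1 lowest. IGF1, the other ligand of that receptor, had 0, 5 and 0 counts. MDK, the heparin-binding midkine, was at 686, 807 and 794 TPM. FGF5 was at 73.4 ± 4.95 TPM and PDGFA at 74.8 ± 3.10 TPM. HGF, the ligand of MET, read 3.10 ± 0.27 TPM, but only 8.41% of its reads lay on its strand, where its level was 0.258 ± 0.062 TPM. GAS6, the ligand of AXL, was at 0.173 ± 0.091 TPM. The receptors MET and AXL were thus expressed in cells whose HGF (on its strand) and GAS6 lay under 1 TPM.

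**Figure D4:**
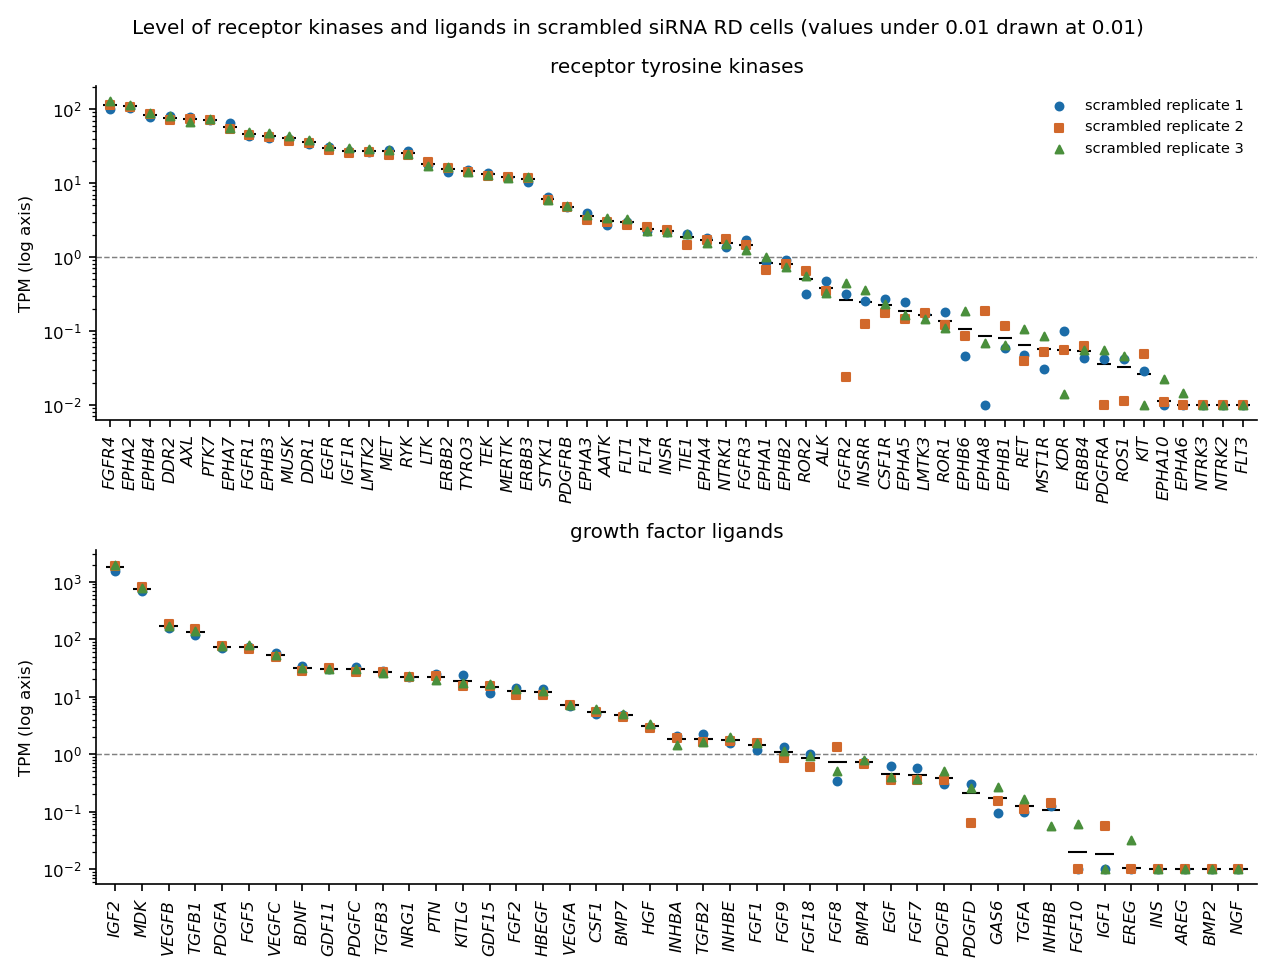
Level in TPM (log axis) of 58 receptor tyrosine kinase genes and 43 growth factor ligand genes in the 3 libraries, with points for libraries, a bar for the mean and a dashed line at 1 TPM. FGFR4 and EPHA2 lead the receptors at 114.1 and 108.6 TPM, and IGF2 leads the ligands at 1799 TPM.

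Of 28 Notch, Hedgehog and Wnt receptor genes 22 were expressed (78.6%). GAS1, a Hedgehog co-receptor, stood at 856, 830 and 1004 TPM, above the related co-receptors CDON (94.9 ± 5.71 TPM) and BOC (53.0 ± 0.98 TPM). The signal transducer SMO was at 81.4 ± 3.23 TPM. PTCH1, which is both the Hedgehog receptor and a target of the pathway, was at 12.9 ± 0.54 TPM, and HHIP, another target, at 0.0220 ± 0.0082 TPM. The Wnt receptors FZD7 (326.2 ± 29.7 TPM) and FZD2 (191.1 ± 19.6 TPM) led the frizzled genes, and LGR5, a stem cell receptor for R-spondins, was at 84.0 ± 8.13 TPM. NOTCH3 stood at 152, 162 and 170 TPM and exceeded NOTCH1 by 2.75 ± 0.21-fold. In the transforming growth factor beta family 11 of 15 receptors were expressed (73.3%), led by ENG (165.3 ± 13.4 TPM) and TGFBR2 (129.3 ± 9.42 TPM).

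Of 40 nuclear receptors 23 were expressed (57.5%). The orphan receptors NR2F6 (116.5 ± 11.5 TPM) and NR2F1 (97.4 ± 5.74 TPM) were highest. Among steroid receptors the glucocorticoid receptor NR3C1 was at 36.2 ± 2.97 TPM. The oestrogen and progesterone receptors were near 0, with ESR1 at 0.0859 ± 0.051 TPM and PGR at 0, 0 and 1 counts.

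The SOX family was expressed in 9 of 19 members (47.4%), below the background. SOX8 was the highest in every library and exceeded SOX12 (106.6 ± 10.5 TPM) by 1.76 ± 0.16-fold and its paralogue SOX9 (77.2 ± 3.95 TPM) by 2.43 ± 0.31-fold. SOX10, the other member of the same subgroup and a neural crest factor, had 0, 2 and 2 counts. SOX1, SOX2, SOX14, SOX17 and SOX21 had 0 counts. SOX15 read 6.84 ± 0.23 TPM but 1.15 ± 0.03 TPM on its own strand. All 8 genes for histone H3 lysine 9 methyltransferases and their partner WIZ were expressed. EHMT2 stood at 54.1, 56.7 and 52.8 TPM and EHMT1 at 22.4, 25.3 and 22.7 TPM, so EHMT2 exceeded EHMT1 by 2.33 ± 0.09-fold, or by 1.45 ± 0.055-fold with the longest transcript.

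Genes with a known place in rhabdomyosarcoma were expressed in 29 of 34 cases (85.3%), a list chosen for this tumour. MYC, a growth-promoting transcription factor, was at 237 ± 8.68 TPM against 2.64 ± 0.18 TPM for MYCN. The cell cycle genes CDK4 (201.6 ± 1.08 TPM) and CCND1 (196 ± 1.45 TPM) varied little between libraries by unstranded counts, and CDK4 was at 323.5 ± 15.5 TPM on its own strand. HMGA2, an architectural factor used to mark fusion-negative tumours, stood at 239, 214 and 236 TPM. Of genes used to mark tumours with a PAX fusion, TFAP2B had 0 counts, NOS1 had 4, 0 and 0, OLIG2 had 0, 1 and 0 and CDH3 was at 0.0483 ± 0.06 TPM. The levels of HMGA2 and of these genes did not go against the FN-RMS label. They are only a part of the list, which also holds MYOG (121.7 TPM) and FGFR4 (114.1 TPM), and those were not used as fusion markers here. Fusion transcripts themselves were not looked for in the gene counts.

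Cancer-testis genes, normally confined to germ cells, were expressed in 10 of 25 cases (40%), below the background, yet 5 had means over 100 TPM. CTAG2 stood at 409, 383 and 435 TPM and PRAME at 374, 359 and 376 TPM. MAGEA3 was at 197.4 ± 17.6 TPM and MAGEA6 at 130.3 ± 18.3 TPM, while MAGEA4 had 0, 0 and 1 counts and 9 members had 0 counts. CTAG2, MAGEA3, MAGEA6, GAGE1 and CT45A1 have near-identical copies, between which reads cannot be told apart with certainty, so their single levels are uncertain. The same holds for low members with such copies, such as CTAG1B (0.112 TPM) and SSX2 (0 counts). Their low values do not establish absence, and the 40% share is uncertain to that extent.

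Markers of other cell types were mostly near 0. No liver marker of 8 was expressed and the summed level of the list was 0.114 to 0.301 TPM per library. Of 10 blood cell markers only CD14 was (1.66 ± 0.32 TPM), and PTPRC, the pan-leukocyte marker, was at 0.0407 TPM. Endothelial markers were expressed in 4 of 10 cases, led by TEK (13.1 ± 0.69 TPM), with PECAM1 at 0.0248 TPM and CDH5 at 0.0293 TPM. Epithelial markers were expressed in 3 of 14 cases, led by the keratin gene KRT18 (79.1 ± 4.22 TPM), with EPCAM at 0.484 TPM. Of 13 adipocyte and cartilage markers 4 were expressed. These were the cartilage factor SOX9 (77.2 TPM), the cartilage collagen COL2A1 (6.44 ± 0.12 TPM), the bone factor RUNX2 (6.14 ± 0.20 TPM) and MATN1 (1.73 TPM), while the cartilage proteoglycan ACAN was at 0.0905 TPM. Markers of cartilage and bone thus stood on both sides of 1 TPM.

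Some neural and neural crest genes were exceptions. Among 14 neural markers 5 were expressed, and 2 of them were abundant. NEFM, the medium neurofilament subunit, stood at 224, 245 and 190 TPM and NEFL, the light subunit, at 122, 117 and 108 TPM. The synaptic genes SNAP25 (4.84 ± 0.51 TPM) and SYP (2.89 ± 0.087 TPM) were low, and the neuronal RNA-binding protein genes ELAVL3, ELAVL4 and RBFOX3 were at 0.0303, 0.0208 and 0.0287 TPM. Of 12 neural crest and melanocyte markers 4 were expressed. NGFR, the low-affinity neurotrophin receptor, stood at 646, 770 and 838 TPM, while S100B was at 0.0839 TPM, SOX10 at 0.0326 TPM and TYR at 0 counts. Neurofilament and NGFR transcripts were therefore high in cells in which most other markers of those lineages were under 1 TPM.

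Outside the lists, the 15 most abundant protein-coding genes that are not mitochondrially encoded were led by TMSB10, an actin-binding thymosin, at 11448, 13070 and 12182 TPM. ACTB (5456 ± 103 TPM), EEF1A1 (4558 ± 361 TPM), RPS2 (4557 ± 143 TPM) and FTL (4293 ± 40.3 TPM) followed, and COL3A1 came next. Below it were YBX1, EEF2, RPL8, RPL7A, HSP90AB1, RPS12, RPL41 and GAPDH, genes of translation, protein folding and glycolysis. COL3A1 was the only gene named here among the 15 that is tied to a tissue. GAPDH read 2482 ± 39.2 TPM by unstranded counts and 4447 ± 46.9 TPM on its own strand.

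Many of the highest values among non-coding genes belonged to short copies of coding genes. The processed pseudogene RPL41P1 read 2833, 1636 and 2669 TPM and PPIAP22 read 1171 ± 368 TPM, with reads that cannot be told apart with certainty from those of the parent genes. Their CVs of 27.3% and 31.4% were above the 6.78% median of protein-coding genes. RN7SL1, the RNA of the signal recognition particle, which has near-identical copies, read 514, 467 and 698 TPM. NORAD, a long RNA that binds Pumilio proteins and protects chromosome stability, was at 371, 299 and 359 TPM.

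Of 53 long non-coding RNAs in the list 36 were expressed (67.9%), and 4 had means over 100 TPM by unstranded counts. After NORAD came GAS5 (231.8 ± 26.7 TPM), SNHG29 (173.4 ± 17.7 TPM) and SNHG3 (105.4 ± 9.79 TPM), all hosts of small nucleolar RNAs. Counted on the gene strand the order differed, with SNHG29 at 342.4 ± 48.3 TPM, NORAD at 331.2 ± 36.3 TPM and SNHG6, another such host, at 146.9 ± 19.02 TPM, above SNHG3 at 102.9 ± 9.48 TPM. MALAT1, a nuclear speckle RNA that is among the most abundant in many cells, was at 26.3 ± 1.82 TPM, NEAT1 at 12.5 ± 0.89 TPM and the imprinted MEG3 at 22.3 ± 1.01 TPM. H19, the imprinted neighbour of IGF2, had 2, 7 and 1 counts (0.102 ± 0.101 TPM) beside 1799 TPM for IGF2. LINC02458 (179.9 ± 13.1 TPM) and LINC00839 (157.1 ± 2.56 TPM), outside the list, were among the 10 highest long RNAs. Of structured RNAs, RMRP, RPPH1, RN7SK and TERC had 0 counts, whereas RN7SL1 had 1549 to 2293. These 0 counts do not establish absence from the cells. The libraries were made by poly-A capture, and reads ambiguous between overlapping genes are not counted. The part that either plays in the 0 counts was not tested.

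Several expressed long RNAs host microRNAs. MIR22HG stood at 25.03 ± 1.58 TPM, MIR503HG at 24.7 ± 1.63 TPM, MIR17HG at 11.2 ± 2.86 TPM and MIR100HG at 9.99 ± 0.41 TPM. The libraries measured these host transcripts and not the mature microRNAs. Mature sequences of the hosted RNAs, from RefSeq (GRCh38.p14), are printed 5′ to 3′ with the seed, bases 2 to 8, in capitals, to show which hosted RNAs share a seed.
hsa-miR-22-3p (MIR22HG): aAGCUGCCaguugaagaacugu
hsa-miR-503-5p (MIR503HG): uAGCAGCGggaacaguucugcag
hsa-miR-17-5p (MIR17HG): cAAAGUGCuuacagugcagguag
hsa-miR-20a-5p (MIR17HG): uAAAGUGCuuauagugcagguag
hsa-miR-19a-3p (MIR17HG): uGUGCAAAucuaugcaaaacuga
hsa-miR-19b-3p (MIR17HG): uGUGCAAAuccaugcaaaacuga
hsa-miR-125b-5p (MIR100HG): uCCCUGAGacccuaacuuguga
hsa-let-7a-5p (MIR100HG): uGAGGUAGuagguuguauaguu
hsa-miR-100-5p (MIR100HG): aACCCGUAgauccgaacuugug
MIR17HG, the host of the growth-promoting miR-17 cluster, carries several pairs with shared seeds, among them miR-17-5p with miR-20a-5p and miR-19a-3p with miR-19b-3p. MIR99AHG (2.75 ± 0.055 TPM) carries the sister cluster of MIR100HG, in which miR-99a-5p has the seed of miR-100-5p and let-7c-5p that of let-7a-5p.

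Strand counts changed some of these levels. The files also count reads by strand, and 87.1% to 89.0% of strand counts lay in the column that matches the gene's strand. Among expressed protein-coding genes a median of 93.5% of reads lay on the gene's own strand. Reads ambiguous between overlapping genes were 9.94% to 10.3% by unstranded counting and 4.40% to 4.67% by strand. Of 462 list genes at 1 TPM or more by either count, 28 differed by more than 1.5-fold, 23 of them higher on the strand and 5 lower. VIM read 536.4 TPM unstranded and 1712 TPM on its strand, and PLAU 678.4 and 1054 TPM. The nuclear receptor NR2C2 read 2.58 TPM unstranded and 22.2 TPM on its strand, and the muscle enolase ENO3 49.6 and 118 TPM.

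The 5 genes that were lower on the strand were LINCMD1, HGF, SOX15, CKMT2 and MYH7B. LINCMD1, a muscle long RNA, read 15.5 ± 3.84 TPM unstranded and 0.750 ± 0.504 TPM on its strand, with 4.86% of its reads there. Its unstranded value is thus made mostly of reads from the opposite strand. For antisense genes as a class this was common: 906 of 5539 were expressed by unstranded counts, with a median of 42.1% of reads on their own strand, and 480 of these had under 50% there. Values of antisense and overlapping genes in unstranded counts are therefore uncertain.

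**Figure D5:**
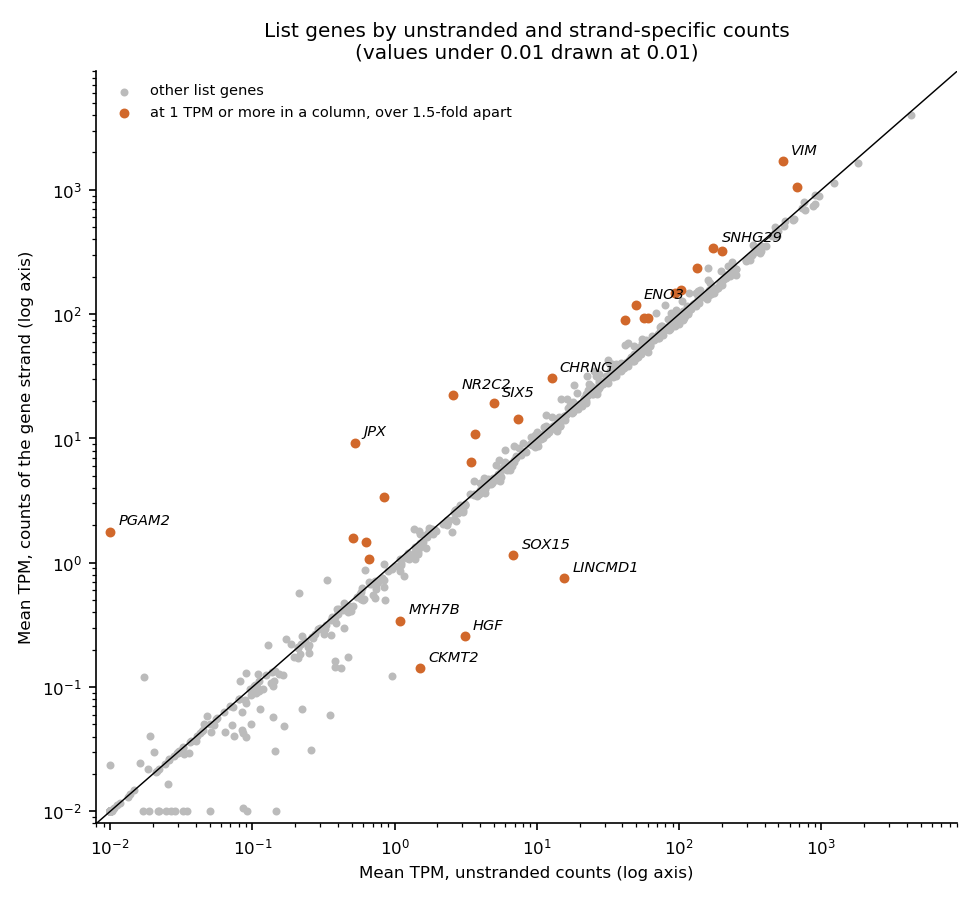
Mean TPM over 3 libraries of each list gene by unstranded counts (horizontal, log axis) and by counts of the gene's strand (vertical, log axis), with the line of equality and with the 28 genes more than 1.5-fold apart in orange. VIM and NR2C2 lie above the line, and LINCMD1, HGF and SOX15 below it.

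Replicates agreed closely but were not identical. Pearson's r between libraries over 12139 protein-coding genes on the log2 TPM scale, across genes that are not independent replicates, was 0.993 to 0.995. As a check for a library deposited more than once, the chi-square of the counts over its degrees of freedom, which is near 1 for sampling noise alone, was 21.0 for replicates 1 and 2, 8.88 for 1 and 3, and 19.2 for 2 and 3. The biological coefficient of variation by edgeR was 0.0887. The most variable protein-coding genes at 10 TPM or more were MRPL12 (29.7, 15.3 and 40.0 TPM) and HSPE1 (91.5, 39.9 and 97.4 TPM), a mitochondrial ribosomal protein and a mitochondrial chaperonin. Replicate 2 was the lowest for both. COX8A, a respiratory chain subunit, was at 212, 138 and 277 TPM, again lowest in replicate 2. HES6, a bHLH factor that aids myogenesis, was at 15.8, 19.8 and 28.7 TPM and IGFBP5, a binding protein of insulin-like growth factors, at 19.6, 24.8 and 37.6 TPM, both highest in replicate 3. MYOD1 varied less, with a CV of 6.74%.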

How the data were processed

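Per the labels' protocols, RNA of the 3 scrambled siRNA libraries was captured on poly-T beads and prepared with NEBNext Ultra. The authors deposited raw, unnormalized gene counts, both unstranded and by strand. STAR 2.5, HTSeq 0.6.1, CASAVA, bcl2fastq, DESeq2 and hg19 are named in the submitters' processing notes. Each file lists 61552 gene identifiers, more recent than hg19, so no gene coordinates are taken from the files. Reads of no gene (20.0% to 21.2%) were left out.

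The unstranded column was the main one. Counts were divided by the union of exon lengths in GENCODE 29 (58352 identifiers; the rest held 0.119% to 0.126% of counts) and scaled to TPM with Python 3.11.15 and pandas 2.3.3. Names came from a table that matched 61399 identifiers. Spread came from edgeR 4.0.16 with an intercept only, checked on simulated data. With a single group no test between groups was made. The members and the 33 lists (704 of 705 genes matched) were chosen with earlier results of these data known. Any list member may be named; outside the lists, the 15 protein-coding and 10 non-coding genes of highest mean TPM that are not mitochondrially encoded, and the 10 most variable at 10 TPM or more, may be; some of these genes are not reported here. LINC02458 and LINC00839 were named after their values were seen, from the 10 highest long RNAs. Promoters came from RefSeq (GRCh38.p14), which held 81 of 116 contractile, junction and dystrophin genes. Alternatives were other thresholds, CPM, TMM scaling, transcript lengths, the strand column, no mitochondrial genes and each library left out.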

Additional observations from a re-analysis of the deposited data

How the results depend on the processing

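The count of protein-coding genes at 1 TPM or more stayed within 1.5 times of 11919 under all 10 alternatives, from 10042 at a threshold of 5 TPM to 12547 at 0.5 TPM, and from 11953 to 12014 when a library was left out. Counts of list members moved by more than that in 10 cases. At 5 TPM the expressed members were 4 of the thick filament list in place of 7, 9 of the thin filament in place of 14, 8 of the Z-disc in place of 13, 2 of the neural in place of 5, and 1 each of the neural crest, epithelial and endothelial markers in place of 4, 3 and 4. Blood cell markers went from 1 to 0 at 5 TPM and at 1 CPM, and endothelial markers from 4 to 2 on the strand column. Of 61 single gene levels at 1 TPM or more that were recomputed, 6 moved by over 1.5-fold with the length of the longest transcript (EHMT1, PAX3, CHRNA1, SOX6, EYA1 and SOX13, at most 2.12-fold) and 6 with the strand column (LINCMD1, HGF, SOX15, SIX5, VIM and CHRNG, at most 20.7-fold), and 0 with a library left out (at most 1.22-fold). Leaving out mitochondrially encoded genes raised levels by a median of 1.22-fold. No mean ratio printed above changed direction with length or strand. Why single genes moved was not tested. Depth limits genes under 3 counts, 0.0635 to 0.0730 CPM. No paired analysis was possible because no result comes from a test and a single group was described.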

Other observations

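Of 8831 protein-coding genes with a mean of at least 10 TPM, mitochondrially encoded ones left out, 4927 were lowest in replicate 2 (55.8%), with a median log2 difference of -0.07 from the mean of the other libraries. Gene groups chosen after the data were seen are set beside this share. Among 71 nuclear genes of the respiratory chain, 54 were lowest in replicate 2 (76.1%), with a median of -0.18. Among 78 genes of the cytoplasmic ribosome 56 were lowest there (71.8%), again with a median of -0.18. The mitochondrial ribosome lay near the share of all genes, with 38 of 70 lowest (54.3%) and a median of -0.09. No test was made of these differences. Of the 13 mitochondrially encoded protein genes 12 were highest in replicate 2, with a median of +0.33. TPM is scaled to a fixed total, so a larger mitochondrial share in a library lowers its other levels. The size of this part was not tested. Nuclear genes of the respiratory chain were as low in replicate 2 as those of the cytoplasmic ribosome, so the difference was not particular to the respiratory chain.

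MEF2 consensus matches in the 250 bases before the start were searched in the 81 of 116 contractile, junction and dystrophin genes that have a promoter in the RefSeq table. They were found in 10 of 31 such genes that were not expressed (32.3%) and in 4 of 50 that were (8%), against 2.90% of all 27305 promoters. Among expressed protein-coding genes the share was 1.48%. A match can also spell a TATA box, as in MYF6, and the 2 were not told apart. The E-box CAGCTG, a preferred site of MYOD1, was found in 12 of those 31 (38.7%) and in 15 of the 50 (30%). It was found in 13.8% of all promoters and in 12.5% of those of expressed protein-coding genes. These are shares of letters in genes chosen from lists, with no test.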
